A study of Mus musculus with 4 samples.

Results

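The 10 genes described here, Cdkn1a, Mdm2, Ccng1, Trp53inp1, Gdf15, Bbc3, Bax, Sesn1, Sesn2 and Plk2, are known targets of the transcription factor p53 and were taken by name from a table of 25965 entries, in which each has 1 entry. They were measured by RNA sequencing in female mouse neural stem cells, 2 libraries per group. Lines were derived at E14.5 from embryos that were Smchd1 del/fl, carried an Xist deltaA allele on a maternal X of 129 origin and a Castaneus (Cast) paternal X, and were of a C57BL/6, 129 and Castaneus mix. Control cells (Smchd1 del/fl) were left untransduced. Deleted cells (Smchd1 del/del) were the other part of the same lines, transduced with the retrovirus MSCV-Cre-puro, put under puromycin 24 h later and harvested at 7 days. Both groups thus share 1 deleted Smchd1 allele and the Xist deltaA allele. Loss of Smchd1, Cre, retroviral transduction and puromycin selection cannot be told apart in this comparison. There were 2 lines, called A and B here, with 1 control and 1 deleted library of each.

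p53 is a transcription factor that is held low by the ubiquitin ligase Mdm2 and is stabilised when DNA is damaged or cells are otherwise stressed. It then binds response elements near genes that halt the cell cycle, promote cell death, repair DNA or limit growth, and Mdm2 is itself a target, which closes a feedback loop. In neural stem cells p53 is known as a brake on self-renewal, with Cdkn1a among its mediators.

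The response element of p53 is a pair of 10-base repeats, each called a decamer here, and its sequence is shown for the members that hold a decamer close to a start site, since it is the feature that these genes are best known to share. Windows from 250 bases before to 50 bases after each RefSeq start (build GRCm38.p6) were searched for the p53 consensus decamer, which reads the same on both strands. Of the 10 genes 9 matched the table of windows, with 14 windows among them, and Trp53inp1 had none. A decamer was found in 1 window each of 5 genes. Capitals mark decamers that match the consensus at all 10 bases. Each stretch of 70 bases is printed on the strand of its gene, and the genes are in order of mismatches over the best 20-base site.
Cdkn1a, chr17:29090903-29090972 (+): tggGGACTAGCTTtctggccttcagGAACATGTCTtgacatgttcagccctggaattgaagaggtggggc
Ccng1, chr11:40755437-40755506 (-): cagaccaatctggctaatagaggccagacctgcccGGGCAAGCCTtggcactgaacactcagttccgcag
Bax, chr7:45467065-45467134 (-): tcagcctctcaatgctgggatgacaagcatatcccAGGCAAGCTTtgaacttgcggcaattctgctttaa
Sesn1, chr10:41887241-41887310 (+): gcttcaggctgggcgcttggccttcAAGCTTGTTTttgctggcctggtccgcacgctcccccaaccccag
Mdm2, chr10:117710900-117710969 (-): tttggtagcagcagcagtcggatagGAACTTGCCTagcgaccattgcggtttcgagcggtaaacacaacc

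Cdkn1a and Ccng1 came closest to the full 20-base element, each with 1 mismatch, a closeness found in 29 of all 32851 windows (0.0883%). The Cdkn1a site begins 51 bases before the upstream of 2 starts, which lies 2790 bases before the other, and the Ccng1 site begins 195 bases before its start. Bax and Sesn1 had 3 mismatches, as had 1 window of Bbc3 at a site that begins 97 bases before its start, and 6.29% of all windows came as close or closer. Mdm2 had 5. A decamer was present in 8.36% of all windows, so a decamer alone is common, and a match describes letters, not binding. The window of Plk2, that of Sesn2, both of Gdf15 and all 3 of Bbc3 held no decamer, which says only that these letters are not in those windows. The motif TGATGNAA, read on both strands as a form of the stress element bound by ATF4, was in 3.97% of all windows and in none of the 14.

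Depth was 29873400 to 34018500 counts per library. Levels are given as CPM, counts scaled to a common library depth with TMM factors. Smchd1, the targeted gene, had 93.5 and 102 CPM in control A and B and 23.4 and 26.6 in deleted A and B. The libraries thus match their labels at this gene (log2 fold change -1.96, SE 0.07). Its edgeR adjusted p was 0.0194 with line as a block and 0.341 without, so the fit without the block did not call even this gene. Of the neural stem cell markers all 8 were read, with a summed 8568 and 7698 CPM in controls and 7893 and 6639 in deleted cells, while 3 of 6 microglial (Cx3cr1, Tmem119 and C1qa) and 2 of 6 mesenchymal markers (Dcn and Lum) had 0 counts in every library. Deleted A stands apart by its interferon-stimulated genes, at a summed 992 CPM against 224 to 310 in the other libraries. Summed astrocyte markers were 1613 and 1778 CPM in controls and 3213 and 3323 in deleted cells. The part of either in the results below was not tested. In bulk RNA a change in the mix of cells and a change in RNA per cell cannot be told apart.

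Under the test without a term for line, no gene of the 14860 tested passed an edgeR adjusted p of 0.05 (0%), and so none of the 10 (2 of the 10, Trp53inp1 and Bax, had an unadjusted p under 0.05, as did 1019 higher and 718 lower genes over all). DESeq2 without a term for line called 2.54% of genes (1.77% higher and 0.774% lower) and 1 of the 10, Trp53inp1, lower. With line as a block, edgeR called 3 of the 10, Gdf15 higher and Trp53inp1 and Sesn2 lower, against 5.6% of all genes tested (3.71% higher and 1.89% lower). DESeq2 with the block called the same 3, against 8.07% of genes (5.2% higher and 2.87% lower). The 10 had a median log2 fold change of -0.19 in the edgeR fit with the block, where all genes tested had 0.01. Their direction was the same in both lines for 7 of the 10, 6 lower and 1 higher, and all genes tested showed 1 direction in both lines in 74.5% of cases, a similar share. The CPM of the groups did not overlap for 3 of the 10 (Trp53inp1, Bax and Plk2), against 45.7% of all genes tested.

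**Figure D1:**
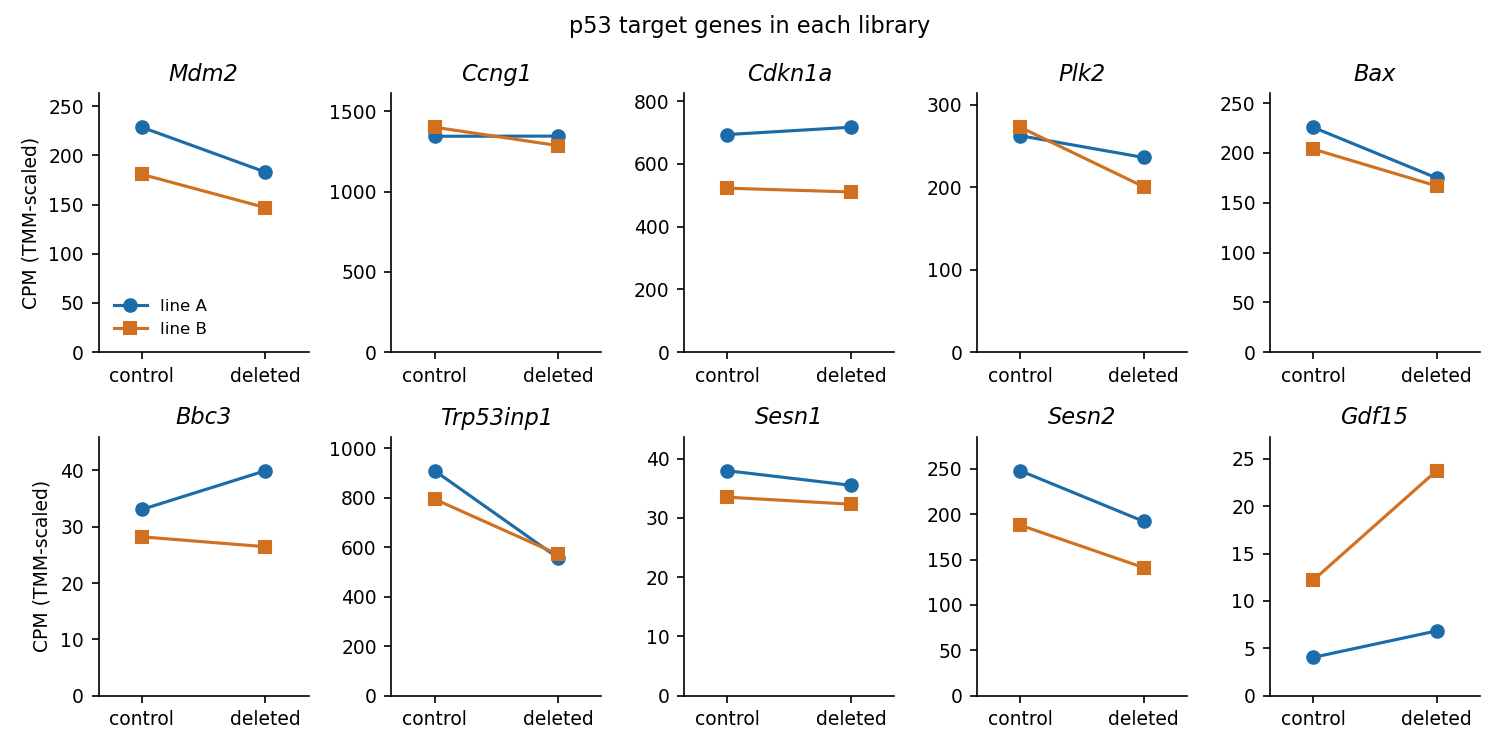
Each panel plots 1 gene in the 4 libraries, with CPM scaled by TMM factors on a vertical axis that starts at 0, control and deleted cells on the horizontal axis, and points of the same line joined (A circles, B squares). Trp53inp1 drops in both lines to 557 and 571 CPM, Gdf15 rises in both from a level that is about 3-fold higher in line B, and Cdkn1a keeps the gap between the lines.

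Trp53, the gene of p53 (chromosome 11, 69580359 to 69591873), had 70.6 and 65.7 CPM in control A and B and 64.8 and 63.0 in deleted A and B. Its log2 fold change was -0.09 (SE 0.07, edgeR adjusted p = 0.402 with line as a block), with a 95% interval of -0.26 to 0.08. Of 17 tested genes of p53 and its regulators, among them Mdm4, Atm, Chek2 and Usp7, none passed either way with line as a block. Of all genes tested 5.6% did. Atr at 0.36 and Ep300 at -0.39 came closest to the threshold (edgeR adjusted p = 0.0544 and 0.0558). The median of the 17 was -0.07. The 2 with the highest counts were Usp7, a deubiquitinase of Mdm2 and p53 (-0.21, SE 0.07), and Trp53bp1, a DNA repair adaptor (-0.07, SE 0.07), neither called.

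Mdm2 (chromosome 10, 117688888 to 117710758) is the ligase that marks p53 for degradation and a direct p53 target. It had 229 and 181 CPM in control A and B and 183 and 147 in deleted A and B. Each deleted library was lower than the control of its line, by ratios of 0.801 in A and 0.813 in B, although deleted A lay above control B and the groups therefore overlapped. The log2 fold change of -0.31 (SE 0.06, 95% interval -0.48 to -0.14) did not pass over all genes (edgeR adjusted p = 0.0623 with line as a block, 0.544 without). In the fit without the block the value was also -0.31, and it was -0.14 without control A, -0.18 without deleted B, -0.47 without control B and -0.48 without deleted A. Ccng1 (chromosome 11, 40748552 to 40755311), which encodes cyclin G1, a feedback regulator that recruits a phosphatase to Mdm2, had 1344 and 1400 CPM in controls and 1345 and 1286 in deleted cells. Its libraries differed little, with a log2 fold change of -0.06 (SE 0.08, 95% interval -0.27 to 0.15, edgeR adjusted p = 0.645 with line as a block).

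Cdkn1a (chromosome 17, 29090979 to 29100722) encodes p21, the inhibitor of cyclin-dependent kinases through which p53 halts the cycle. It had 693 and 523 CPM in control A and B and 717 and 510 in deleted A and B. Both libraries of line A lay above both of line B, and within a line the deleted library was at a ratio of 1.03 (A) and 0.977 (B) to its control. The fitted log2 difference was 0.01 (SE 0.07, edgeR adjusted p = 0.962 with line as a block). Its 95% interval was -0.18 to 0.19 with the block and -0.62 to 0.65 without. Plk2 (chromosome 13, 110395044 to 110400844), a polo-like kinase, had 263 and 273 CPM in controls and 236 and 201 in deleted cells. Both deleted libraries were below both controls, more so in line B (log2 of -0.15 in A and -0.44 in B), and the fitted -0.30 (SE 0.09, 95% interval -0.54 to -0.06) did not pass (edgeR adjusted p = 0.114 with line as a block, 0.441 without).

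Of the death effectors, Bax (chromosome 7, 45461695 to 45466898) permeabilises the mitochondrial outer membrane. It had 226 and 204 CPM in control A and B and 175 and 167 in deleted A and B, so all deleted values were below all control values. The log2 fold change of -0.33 (SE 0.07, 95% interval -0.50 to -0.15) just missed the threshold (edgeR adjusted p = 0.0600 with line as a block, 0.406 without). Bbc3 (chromosome 7, 16309616 to 16318205), which encodes the BH3-only protein PUMA, had 33.1 and 28.2 CPM in controls and 39.9 and 26.4 in deleted cells. It was higher in deleted A and lower in deleted B than in the matching control, and the fitted 0.09 (SE 0.12) had a 95% interval of -0.22 to 0.40 (edgeR adjusted p = 0.634 with line as a block).

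Trp53inp1 fell the most of the 10 with line as a block. This gene (chromosome 4, 11156431 to 11174379) encodes a stress protein that acts with p53 and in autophagy. It had 910 and 795 CPM in control A and B and 557 and 571 in deleted A and B, and both deleted libraries were well below both controls. The deleted mean was 564 ± 10.2 CPM (SD, n = 2) and the control mean 852 ± 81.3 (SD, n = 2). The log2 fold change was -0.59 (SE 0.09), a ratio of 0.663, with an edgeR adjusted p of 0.0390 with line as a block and 0.401 without. DESeq2 gave an adjusted p of 1.00e-05 with the block and 0.00171 without it. In the fit without the block the value was -0.60, and leaving out 1 library at a time kept it between -0.69 and -0.50.

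The sestrins are stress-induced proteins that restrain mTORC1 signalling. Sesn2 (chromosome 4, 132492032 to 132510501), which ATF4 also induces, had 248 and 188 CPM in control A and B and 192 and 141 in deleted A and B. The deleted library was lower in each line, by ratios of 0.775 and 0.751, and because line A was higher throughout, deleted A lay just above control B. Sesn2 fell by 0.39 on the log2 scale (SE 0.07, edgeR adjusted p = 0.0451 with line as a block, 0.538 without). In the fit without the block the value of Sesn2 was -0.39, and it was -0.18 without control A, -0.20 without deleted B and -0.63 without deleted A. Sesn1 (chromosome 10, 41810574 to 41908424) had 37.9 and 33.5 CPM in controls and 35.5 and 32.3 in deleted cells. Its fitted log2 fold change of -0.07 (SE 0.08, 95% interval -0.29 to 0.14, edgeR adjusted p = 0.574 with line as a block) did not pass, and the difference between the sestrins was not tested.

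Gdf15 was the 1 member called higher with line as a block. It encodes a secreted stress cytokine (chromosome 8, 70629393 to 70632456) that both p53 and ATF4 induce. It had 4.04 and 12.2 CPM in control A and B and 6.84 and 23.8 in deleted A and B, from 120, 415, 229 and 760 counts. Deleted cells were higher within each line, by ratios of 1.69 and 1.95, but line B was 3.01-fold above line A in controls and 3.47-fold in deleted cells, so deleted A lay below control B. The log2 fold change was 0.87 (SE 0.14, 95% interval 0.51 to 1.23, edgeR adjusted p = 0.0422 with line as a block, 0.676 without). In the fit without the block the value was 0.91, and it was -0.27 without deleted B, 0.33 without control A, 1.55 without deleted A and 1.92 without control B.

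**Figure D2:**
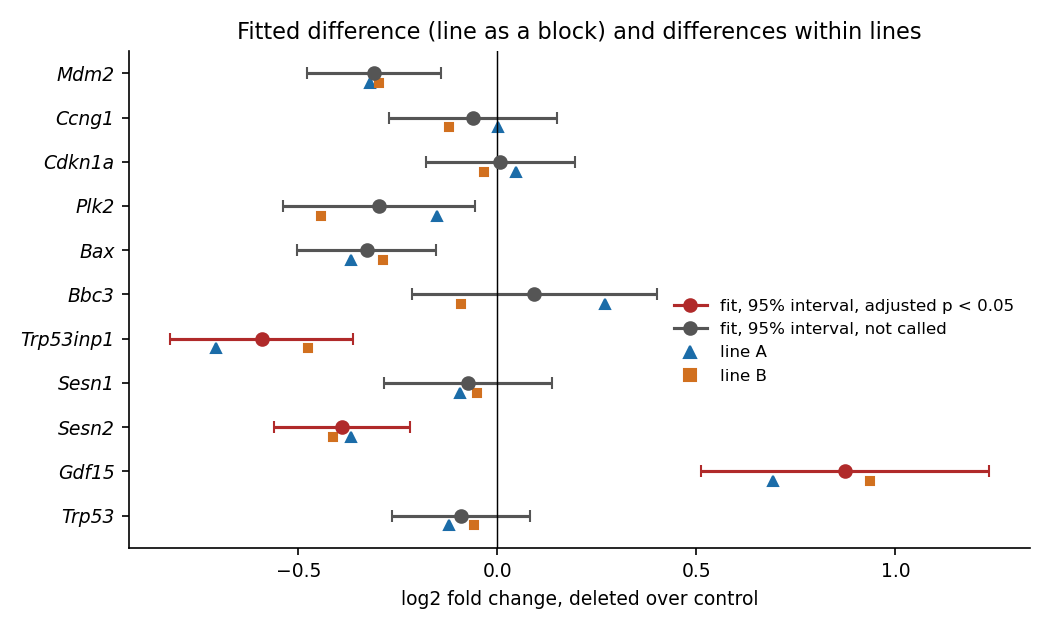
Circles give the log2 fold change of deleted over control cells for the 10 genes and Trp53 from the fit with line as a block, bars its 95% interval, and triangles and squares the differences within line A and line B. Trp53inp1, Sesn2 and Gdf15 (red) passed the adjusted threshold, and the interval of Cdkn1a lies on both sides of 0.

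Per kilobase of merged GENCODE M21 exons, a length that may differ from the one the counts were taken over, the mean control level of the 10 genes ran from 4.38 CPM per kb for Gdf15 to 391 for Ccng1. Cdkn1a (195 and 147 in control A and B), Bax (143 and 129) and Trp53inp1 (140 and 123) followed Ccng1, with both Cdkn1a values above those of Bax and Trp53inp1, which overlapped. Below them were Sesn2 (71.4 and 54.1), Plk2 (58.5 and 60.7) and Mdm2 (a mean of 40.3), with Sesn2 and Plk2 overlapping and Mdm2 below both. Bbc3 (15.6 and 13.3), Sesn1 (9.53 and 8.41) and Gdf15 (2.18 and 6.58) were lowest. Of the called genes, Trp53inp1 was thus among the higher of the 10 in untransduced cells, Sesn2 in the middle and Gdf15 the lowest.

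Other known p53 targets, 69 genes listed by role, gave 67 that were tested. In the blocked fit edgeR called 1 of them higher and 3 lower (5.97%, against 5.6% of all genes tested). Their median log2 fold change was 0.14, where all genes tested had 0.01. In both lines 32 were higher and 18 lower. Of all genes tested 74.5% showed 1 direction in both lines, a similar share. Among 14 tested apoptosis genes, Trp53i11, a p53-induced gene, fell from 436 and 167 CPM in control A and B to 140 and 69.6 in deleted A and B (-1.45, SE 0.11, edgeR adjusted p = 0.0194 with line as a block, 0.441 without). Among 17 metabolism and redox genes, Gpx1, a glutathione peroxidase, fell by 0.47 (SE 0.08, edgeR adjusted p = 0.0429 with line as a block, 0.401 without), from 185 and 162 CPM in control A and B to 125 and 124 in deleted A and B. Sat1, an X-linked gene that encodes the polyamine acetyltransferase, rose by 0.70 (SE 0.12, edgeR adjusted p = 0.0451 with line as a block, 0.406 without), from 17.5 and 15.8 CPM to 31.3 and 23.4, and both its deleted libraries lay above both controls. Among 11 secreted and surface genes, Igfbp3, an IGF-binding protein, fell by 0.76 (SE 0.08, edgeR adjusted p = 0.0227 with line as a block, 0.549 without), from 2708 and 1421 CPM to 1576 and 849. For Trp53i11 and Gpx1 the groups did not overlap, while Igfbp3 was lower in each line and its deleted A lay above control B. Without the block DESeq2 called Gpx1 of the 4 (adjusted p = 0.0394). In the edgeR fit without the block Trp53i11 was at -1.52, and at -0.68 without control A and -2.12 without deleted A. Igfbp3 was at -0.77 there, and at -0.235 without control A, -0.41 without deleted B, -1.16 without control B and -1.28 without deleted A.

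None of the 14 tested arrest and feedback genes passed, with Zmat3 at -0.08 and Phlda3 at -0.07, and none of the 11 DNA repair and nucleotide genes, with Ercc5 at -0.17 and Rpa1 at 0.14. Several targets moved more in line A than in line B without passing, and these were chosen after their values were seen. Perp, a desmosomal death effector, had a log2 of 1.52 in A and 0.25 in B, and Casp1, an inflammatory caspase, 1.29 and 0.43. The peptide transporter gene Tap1 had 0.92 and 0.04, and Gadd45a, a growth arrest gene, 0.52 and -0.37. Other targets moved more in line B, also without passing. Fdxr had 0.07 in A and 0.46 in B, Pcna -0.03 and 0.35, and Psrc1 -0.04 and 0.30. Deleted A is the library with the raised interferon-stimulated genes, whose median log2 came to 2.27 in line A against 0.16 in line B, 17 and 15 of 17 tested members being positive and none called (B2m, at 0.87 with line as a block, is one of those with the highest counts). Its part in these values was not tested.

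**Figure D3:**
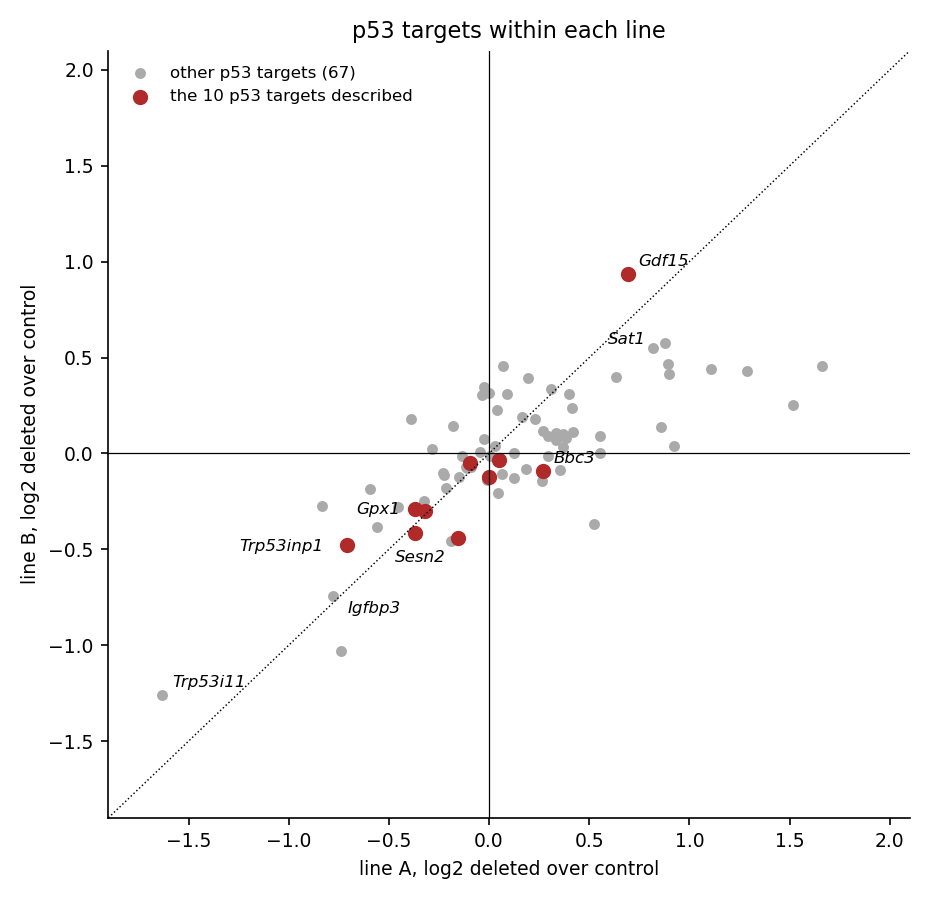
Each point is a p53 target, with its log2 ratio of deleted over control in line A (horizontal) and line B (vertical). Red points are the 10 genes described, grey points the 67 other targets tested, and the dotted line marks equal ratios, with most of the far right points lying below it. Gdf15 and Trp53inp1 lie at opposite ends of the red points.

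Cell cycle genes that p53 is known to lower through p21 and the DREAM complex were also read, and the part of p53 in their values was not tested. All 20 had positive fold changes with line as a block, with a median of 0.22, where all genes tested had 0.01. None passed in edgeR with the low-count filter. Top2a (0.44, SE 0.08, edgeR adjusted p = 0.0519) and Mki67 (0.37, SE 0.09, edgeR adjusted p = 0.0712) had the highest counts. Both passed in edgeR with the block and no low-count filter (adjusted p = 0.0280 and 0.0499), a fit whose share called is not given here. Both also passed in DESeq2 with the block (adjusted p = 0.00311 and 0.0233), which called 8.07% of all genes tested. Top2a passed in DESeq2 without the block (adjusted p = 0.0287), which called 2.54%. In the edgeR fit without the block Mki67 was at 0.38, and at 0.24 without deleted B. In line A 13 of the 20 were positive and in line B all 20. ATF4 stress targets, listed because Gdf15 and Sesn2 also respond to ATF4, had a median of -0.13 over 12 tested genes. Of these 1 passed, where 5.6% of all genes tested did. That gene, Psat1, an enzyme of serine synthesis, fell by 0.50 (SE 0.08, edgeR adjusted p = 0.0411 with line as a block, 0.405 without), and DESeq2 without the block also called it (adjusted p = 0.0289).

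Among the marker lists with line as a block, edgeR called 6 of 8 astrocyte markers and 1 of 8 neural stem cell markers higher. Over all genes tested 3.71% were called higher. The 6 were S100b at 2.64, the water channel gene Aqp4 at 2.01, Gfap at 1.38, the glutamate transporter gene Slc1a3 at 0.96, Gja1 at 0.64 and Aldh1l1 at 0.62. Values were positive for all 8 astrocyte and 5 of 8 neural stem cell markers. Of 5 tested neuron markers 1 was called lower, Syt1 at -1.47, where 1.89% of all genes tested were. No gene was called of 4 tested oligodendrocyte, 2 microglial and 1 mesenchymal markers. Csf1r was at -0.11 and Col1a1 at 0.04. Without the block edgeR called none of these markers, with adjusted p of 0.341 (Aqp4) to 0.676 (Aldh1l1) for the 6 of astrocytes and 0.444 for Syt1, while DESeq2 called Aqp4, Slc1a3, Gfap and S100b. In the edgeR fit without the block S100b was at 2.81, and at 1.36 without deleted A. Gja1 was at 0.65, and at 0.41 without deleted A. Syt1 was at -1.47, and at -0.73 without control A, and at -2.23 without deleted A.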

How the data were processed

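The authors deposited raw counts per gene, 1 column of all aligned reads for each of 4 libraries. A further 8 columns, reads split by parental genome, cannot be matched to single samples by name and were not used here, so the comparison of alleles was not made. Reads had been aligned to mm10, with bcl2fastq, TopHat2 2.0.12 and edgeR listed, per the submitters' processing notes. The counting method, the region counted and the use of strand were not given in the sources used here. Each column was placed in a group by its name, and the line is a number in that name, which the sample titles lack.

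Genes were tested with edgeR 4.0.16 in R 4.3.3 (TMM, filterByExpr, quasi-likelihood, Benjamini-Hochberg, threshold 0.05), deleted against control with no term for line. The other fit had line as a block and 1 residual degree of freedom. Same-numbered columns are taken as parts of 1 line because, per the labels, each line was divided. Their deviations from group means correlated at r = 0.72 across 14860 genes, which are not independent replicates. Values with the block are therefore printed, and where a call differs the outcome of both fits is given. SE is the log2 fold change over the root of F, and 95% intervals are for single genes, not adjusted. Within-line log2 values add 0.5 CPM, and within-line ratios add nothing. DESeq2 1.42.0 was an alternative. Libraries of a group were not duplicates (chi-square over degrees of freedom 43.9 in controls and 71.1 in deleted cells). With 2 cultures per group, p-values without the block rest on the spread between the samples of a group. Those with the block rest on how alike the difference was in the 2 lines. Both fits also borrow the spread of other genes. The scripts were tested on simulated data in which a changed gene changed alike in both lines. That test does not cover changes that differ between lines.

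The members and lists were chosen with earlier results of these data known. Named genes are Smchd1, Trp53, the 10 members and, from each list, called genes (up to 6 by lowest p), or otherwise the 2 with the highest counts. Some genes this rule names are not reported here. Gm12981, with at most 26 counts, overlaps Sesn2. Pidd1, Pvt1 and Map2 were not analysed here.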

Additional observations from a re-analysis of the deposited data

Results flagged for a closer look

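Of the 10 genes, 3 moved in opposite directions in the lines, with 1 library against 1 in each, and this difference between lines was not tested. Cdkn1a had a log2 of 0.0476 in line A and -0.0338 in line B, and Ccng1 had 0.000923 in A and -0.123 in B. Bbc3 had 0.269 in line A and -0.0909 in line B. Deleted A is the library in which interferon-stimulated genes were raised, and its part in any of the 3 was not tested.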

How the results depend on the processing

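The calls depended on line being in the model. With the replicate block edgeR called 832 of 14860 genes tested (5.6%), 3 of the 10 p53 targets and 13 genes of the other lists. With RLE size factors and the block these were 908, 3 and 16 over the same 14860. With the block and no low-count filter they were 1802, 5 and 40, where Mdm2 (edgeR adjusted p = 0.0427) and Bax (edgeR adjusted p = 0.0398) passed as well. The unfiltered fit tested more genes, and its share called is not given here, so the 5 cannot be set against it. DESeq2 called 378 (2.54%), 1 and 9 without the line term and 1199 (8.07%), 3 and 29 with the block. RLE factors or no filter without the block called 0, as did every fit that left out 1 library, where the lone library of a group is assumed to vary like the other group. With the block, leaving out a library leaves 1 complete line and no residual degrees of freedom, so it was not run, nor was the ratio of alleles. Over the 4 fits with the block the adjusted p of Trp53inp1 ran from 1.00e-05 to 0.0390, of Sesn2 from 0.0133 to 0.0451 and of Gdf15 from 0.0167 to 0.0422.

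The median log2 fold change of the 10 genes was -0.18 without the block and ran from -0.31 (without deleted A) to -0.12 (without control A). Signs turned for some genes when 1 library was left out. Those fits had no term for line, so 1 line was left unpaired and any difference between lines entered the value. Cdkn1a ran from -0.254 (without deleted A) to 0.227 (without control A), was -0.179 without control B, and was -0.00248 with the block and no filter. Gdf15 was lowest, -0.267, without deleted B and highest, 1.92, without control B, while its log2 within lines was 0.69 (A) and 0.94 (B). Bbc3 ran from -0.213 to 0.364, Trp53bp1 from -0.203 to 0.0485, B2m from -0.326 to 1.91 and Aldh1l1 from -0.149 to 1.32, each turned without deleted A. Sesn1 ran from -0.165 to 0.0130 and Col1a1 from -0.129 to 0.220, each turned without control A, with Col1a1 at -0.0635 without deleted B. How much of each move came from the difference between lines was not tested.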
